A study of Gallus gallus with 4 samples.

Results

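Array probes for 54 chicken transcripts gave at least 2-fold more signal in DT40 cells expressing OsTIR1 than in parental DT40 cells, both with and without the auxin indole-3-acetic acid (IAA). They were selected on that measured difference, out of 42034 probes on the array. A probe also had to be well above background on all 4 arrays and to carry an identifier other than a RefSeq mRNA accession or a microRNA name. Those identifiers cover 41724 probes, of which 19162 were well above background on all 4 arrays. The 54 are 0.282% of the 19162, and because the line difference chose them, that difference is described below and not tested.

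OsTIR1 is the rice form of TIR1, an F-box protein that serves as the auxin receptor in plants. Auxin joins TIR1 to Aux/IAA repressor proteins, and the SCF ubiquitin ligase that contains TIR1 then marks the repressors for degradation, which releases auxin-responsive genes. Animal cells have the other SCF subunits but no TIR1 and no Aux/IAA proteins, which is why a TIR1 transgene lets auxin degrade a tagged protein in them. DT40 is a B lymphoma line from the bursa of a chicken, used in genetics because targeted constructs integrate efficiently in it.

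The 4 groups were the OsTIR1 line with 500 µM IAA, the OsTIR1 line without IAA, parental DT40 with 500 µM IAA and parental DT40 without IAA. Each was harvested after 6 h and is 1 sample on 1 array, so no value has a spread between replicates and no p-value is given for a line difference. IAA was added from an ethanol stock, and the sources used here do not give what the cultures without IAA received, nor the promoter of the transgene or whether the line is 1 clone. Every group, parental cells included, grew in the same medium with fetal calf and chicken serum. No probe carries a name for OsTIR1, so the level of the transgene was not analysed here. In RNA from a whole culture, a change in the share of cells and a change in RNA per cell cannot be told apart. All 4 arrays sat on 1 slide and were scanned in 1 run, per the file headers.

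Signal is given as background-subtracted intensity units as the scanner software wrote them, and differences as log2 ratios after each array was scaled to its 75th percentile. That percentile was 168 and 171 units in the OsTIR1 line with and without IAA, against 168 and 177 in parental DT40. Intervals in brackets are nominal 95% intervals from the software's error of the 2 spots compared, which cover no variation between cultures. The brightness of 1 probe does not order its transcript against that of another. Of the array's probes, 55.4% and 58.0% were well above background in the OsTIR1 line with and without IAA, against 49.9% and 47.8% in parental DT40. The label of a B cell line could not be checked, since of 12 B cell markers RAG1 alone has a probe with a gene name here, and it was not well above background on any array.

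What the 54 transcripts encode is not given by the array files. None of the 54 identifiers matched the RefSeq gene table of assembly GRCg7b, so they are called by identifier, with no role stated. The table was searched by gene names and numbers and by RefSeq and Ensembl accessions, and the rule leaves out RefSeq mRNA accessions. Identifiers of the remaining kinds could hardly match, so the lack of a match does not show that a transcript has no gene there. Each identifier stands for 1 probe, and no other probe on the array carries it. Whether several identifiers come from 1 gene could not be checked, so the 54 transcripts need not be 54 genes. They fall into 14 kinds by their leading letters. Most are GenBank style accessions of cDNA sequences, 6 begin with TC, the mark of a consensus built from overlapping sequences, and 3 are names of Agilent's own probe design.

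Across the 54, the lower of the 2 OsTIR1 signals was above the higher of the 2 parental signals in every case. Median intensity was 255 and 242 units in the OsTIR1 line with and without IAA, against 101 and 106 in parental DT40. The line difference had a median of 1.35 with IAA (range 1.00 to 2.51) and of 1.33 without IAA (range 1.03 to 2.57), where the median over all 19436 probes above background on every array was 0.01 in both. In each transcript 2 line differences were measured, and the smaller one ranks them below. It was at least 4-fold for 4 transcripts, between 1.5 and 2 on the log2 scale for 8 and between 1 and 1.5 for 42. The gap left between the lines on the log2 scale, from the higher parental to the lower OsTIR1 signal, ran from 0.94 to 2.44, a separation that follows largely from the rule. The 2 arrays of a line were at most 0.36 apart for any of the 54.

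**Figure D1:**
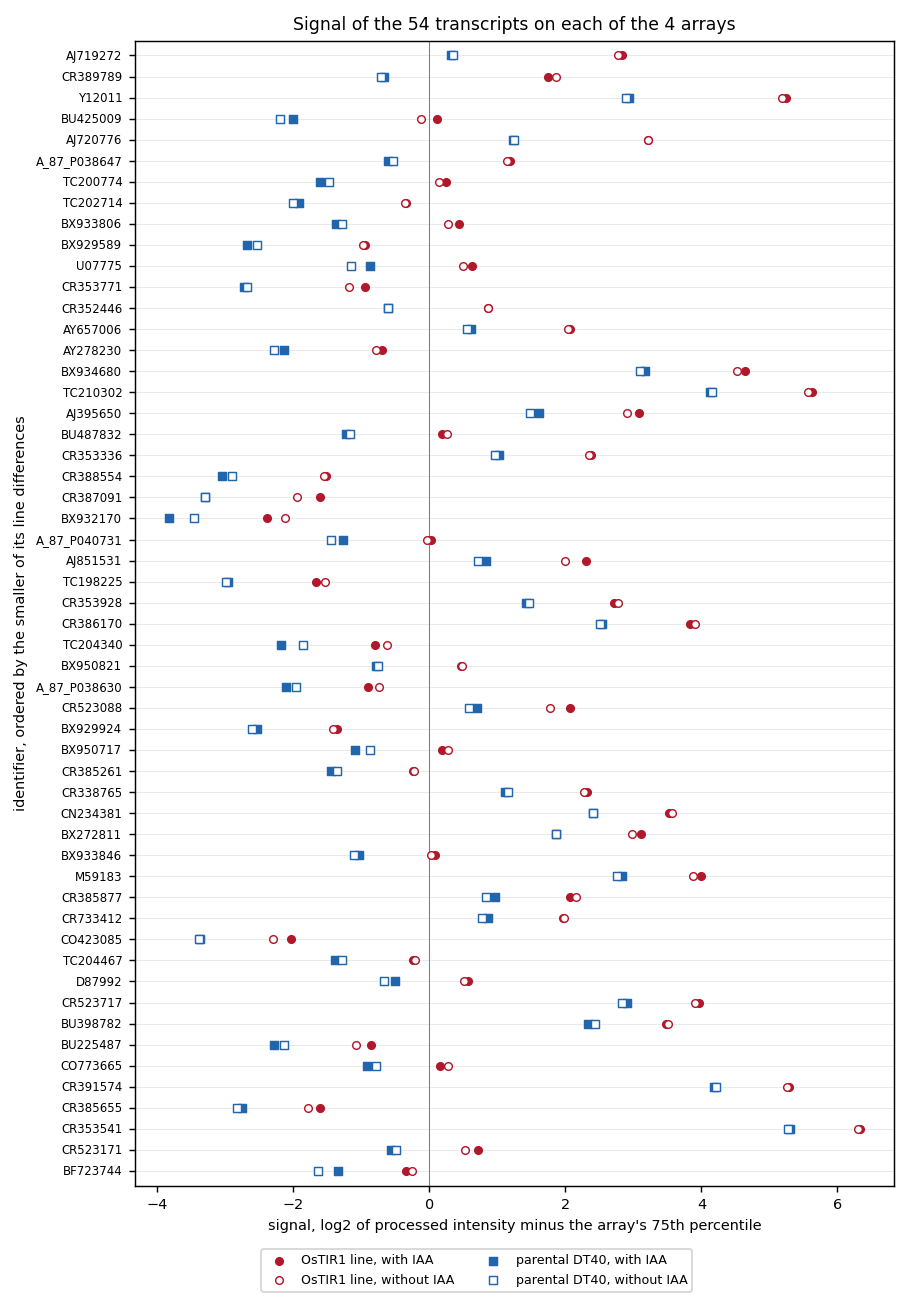
Signal of each of the 54 transcripts (rows) on the 4 arrays, as log2 intensity relative to the array's 75th percentile (x axis). Circles are the OsTIR1 line and squares parental DT40, filled with IAA and open without; an open marker can cover a filled one. In every row both circles lie to the right of both squares, with a gap of at least 0.94.

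The 4 transcripts with the largest differences were AJ719272, CR389789, Y12011 and BU425009. AJ719272 had 1197 and 1181 intensity units in the OsTIR1 line with and without IAA, against 209.6 and 224 in parental DT40. Its line difference was 2.51 with IAA (2.11 to 2.92) and 2.44 without (2.04 to 2.84). CR389789 had 564 and 623 units in the OsTIR1 line with and without IAA, against 105 and 108 in parental DT40. In both, the OsTIR1 arrays were the high ones and the lines did not overlap, which follows largely from the rule. For CR389789 the line difference was 2.42 with IAA (2.02 to 2.83) and 2.57 without (2.16 to 2.98), the one of these 4 that was smaller with IAA.

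Y12011 was bright on every array, with 6350.2 and 6231 units in the OsTIR1 line with and without IAA, against 1282 and 1307 in parental DT40. Its differences of 2.31 with IAA (1.91 to 2.71) and 2.30 without (1.90 to 2.70) stand for 4.95-fold and 4.91-fold more signal. With no background taken off, its differences were 2.31 with IAA and 2.40 without. BU425009 was dim in parental DT40, with 182 and 158 units in the OsTIR1 line with and without IAA, against 41.9 and 38.5 in parental DT40. Its differences were 2.12 with IAA (1.69 to 2.55) and 2.08 without (1.62 to 2.55), and they were 1.57 and 1.39 with no background taken off.

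Between 1.5 and 2 lay AJ720776, A_87_P038647, TC200774, TC202714, BX933806, BX929589, U07775 and CR353771. AJ720776 had 1557 and 1590.0 units in the OsTIR1 line with and without IAA, against 395 and 416 in parental DT40, a line difference of 1.98 in both comparisons. A_87_P038647 had 383 and 378 units in the OsTIR1 line, against 110.3 and 122 in parental DT40, and differed by 1.79 with IAA and 1.67 without. These 2 stood at the top of the 8 and changed little between the comparisons.

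TC200774 had 199 and 189 units in the OsTIR1 line with and without IAA, against 55.4 and 63.4 in parental DT40, and TC202714 had 133 and 134 in the OsTIR1 line, against 44.6 and 44.2 in parental DT40. Their line differences were 1.85 with IAA and 1.62 without for TC200774, and 1.57 and 1.64 for TC202714. BX933806 had 229 and 208 units in the OsTIR1 line with and without IAA, against 65.1 and 72.1 in parental DT40. Its differences of 1.81 with IAA and 1.57 without, like those of TC200774, were larger with IAA by more than 0.2, within the half-width of at least 0.40 of each interval.

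BX929589 had 87.0 and 87.3 units in the OsTIR1 line with and without IAA, against 26.2 and 30.3 in parental DT40, and CR353771 had 87.0 and 75.5 in the OsTIR1 line, against 25.5 and 27.5 in parental DT40. Both lay in the dimmest of 4 equal bins of signal among probes above background on all arrays. Differences were 1.73 with IAA and 1.57 without for BX929589, and 1.77 and 1.5 for CR353771. U07775 had 261 and 241 units in the OsTIR1 line with and without IAA, against 91.8 and 79.7 in parental DT40. It differed by 1.51 with IAA and 1.64 without, and its signal was higher with IAA in both lines.

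Several of these differences depend on how background is treated. With normexp background correction, a model-based alternative that adds an offset, the differences with and without IAA were 1.30 and 1.18 for BU425009, 1.2 and 1.06 for TC200774 and 0.90 and 0.96 for TC202714. They were 1.1 in both for BX933806, 0.72 and 0.69 for BX929589 and 0.87 and 0.58 for CR353771. All were still above 0, but 3 of these 6 transcripts were then below 2-fold in both comparisons. CR389789, at 1.89 and 2.04, and U07775, at 1.09 and 1.15, also left their main intervals but stayed above 2-fold. AJ719272, at 2.23 and 2.18, and Y12011, at 2.25 and 2.31, changed less.

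By mean signal in the OsTIR1 line, the top 6 of the 54 probes were Y12011, given above, and CR353541, TC210302, CR391574, BX934680 and CR523717. CR353541 had 13538 and 13533 units in the OsTIR1 line with and without IAA, against 6602 and 6797 in parental DT40. Its line difference was 1.04 in both comparisons (0.64 to 1.44), just past the threshold. TC210302 had 8282 and 8161 units in the OsTIR1 line, against 2942 and 3149.8 in parental DT40, and differed by 1.49 with IAA (1.09 to 1.89) and 1.42 without (1.02 to 1.82).

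CR391574 had 6574 and 6558 units in the OsTIR1 line with and without IAA, against 3057 and 3270.3 in parental DT40, with differences of 1.1 and 1.05. BX934680 had 4200.4 and 3953 units in the OsTIR1 line, against 1508 and 1516 in parental DT40, with differences of 1.48 and 1.43. CR523717 had 2637 and 2585 units in the OsTIR1 line, against 1257 and 1254 in parental DT40, with differences of 1.07 and 1.09. In all 5 the arrays of a line were at most 0.12 apart on the log2 scale.

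Several kinds of identifier are held by 1 transcript each. M59183 had 2671 and 2520.5 units in the OsTIR1 line with and without IAA, against 1196 and 1199 in parental DT40, with differences of 1.16 and 1.11. CN234381 had 1935 and 2037 units in the OsTIR1 line, against 886 and 929 in parental DT40, with differences of 1.13 and 1.18. D87992 had 250.1 and 244 units in the OsTIR1 line, against 118 and 111 in parental DT40, with differences of 1.08 and 1.18. These 3 lay near the 2-fold threshold in both comparisons. Y12011 and U07775, given above, and BF723744, given below, are also alone in their kind.

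Near the threshold lay many of the transcripts, and 14 of the 54 had a smaller line difference under 1.1. Just inside were CR523171 and BF723744. CR523171 had 277 and 248 units in the OsTIR1 line with and without IAA, against 113 and 126 in parental DT40, with differences of 1.30 and 1.03. BF723744 had 133 and 144 units in the OsTIR1 line, against 66.4 and 56.9 in parental DT40, with differences of 1.00 (0.58 to 1.42) and 1.38 (0.95 to 1.82). Just outside were BU402953, with 47.2 and 50.9 units in the OsTIR1 line against 23.6 and 24.1 in parental DT40, and CR391576, with 207 and 211 in the OsTIR1 line against 103 and 109 in parental DT40. Their differences with and without IAA were 1.00 and 1.12 for BU402953 and 1.01 and 1.00 for CR391576, each below the threshold before rounding in 1 comparison. With normexp, BF723744 differed by 0.65 with IAA and 0.79 without.

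The other 32 transcripts had smaller line differences between 1.04 and 1.47, with a median of 1.22. Their intensities ran from 32.2 to 2385 units in the OsTIR1 line with IAA and from 34.9 to 2564 without, against 11.9 to 978 and 16.0 to 1006 in parental DT40. Accessions beginning with CR were the most frequent kind among all 54, with 18 (33.3% of the 54, and 25.3% of the 19162 probes the rule could have taken). The 9 beginning with BX made up 16.7% of the 54 and 11.7% of the 19162, and the 4 beginning with BU made up 7.41% and 18.3%. The 4 beginning with AJ had the highest median of the smaller difference among the kinds with more than 3 transcripts, 1.69, and none of them was below 209.6 units on any array. No test was run on these shares.

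Among these 32, 4 more are given in every sample. AY657006 had 707 and 703 units in the OsTIR1 line with and without IAA, against 257 and 258 in parental DT40. Its differences were 1.46 with IAA and 1.49 without. AJ395650 had 1427 and 1276 units in the OsTIR1 line, against 518 and 494 in parental DT40, and AJ851531 had 827 and 688 in the OsTIR1 line, against 299 and 288 in parental DT40. Their line differences were 1.46 with IAA and 1.41 without for AJ395650, and 1.46 and 1.30 for AJ851531. CR386170 had 2385 and 2564 units in the OsTIR1 line, against 978 and 1006 in parental DT40, with differences of 1.29 and 1.39. These 4 were picked after their values were seen.

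The line difference was measured in pairs of arrays that share no array, the OsTIR1 and parental arrays with IAA and those without. With IAA, 86 of the 19162 probes (0.449%) were at least 2-fold higher in the OsTIR1 line, and without IAA 100 were (0.522%). The 54 are 62.8% of the first and 54.0% of the second. Within the 54, the line difference with IAA minus that without ran from -0.38 to 0.36 with a median of 0.04, and 30 transcripts were within 0.1. The rule bounds both differences from below, so this closeness is a description of the chosen values. In 3 transcripts the 2 differences were more than 0.3 apart, BF723744 with the smaller one with IAA, and CR387091 and BU225487 with the larger one with IAA.

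**Figure D2:**
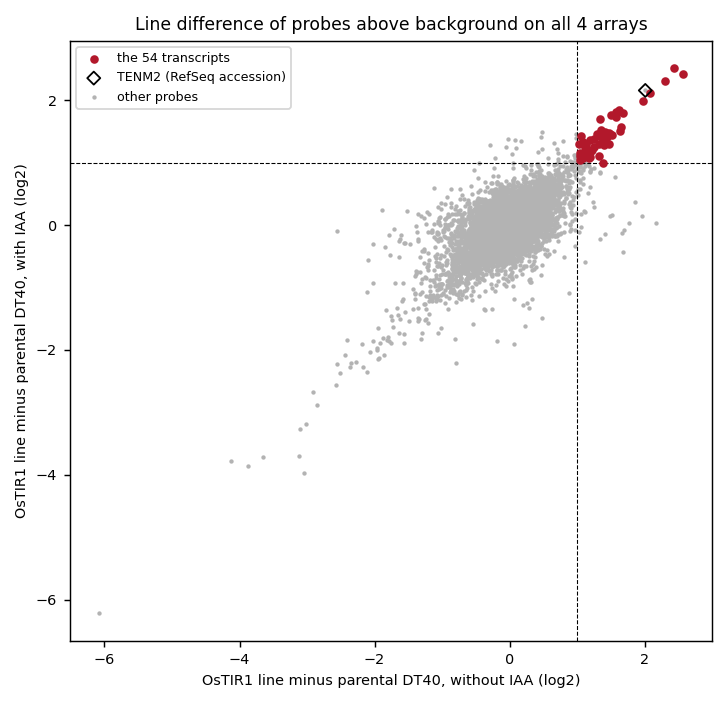
OsTIR1 line minus parental DT40 on the log2 scale, without IAA (x axis) and with IAA (y axis), for each of the 19436 probes well above background on all 4 arrays. The 54 transcripts (red) lie past the dashed 2-fold lines on both axes, TENM2 is a diamond, and grey points are the other probes.

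CR387091 had 55.3 and 44.5 units in the OsTIR1 line with and without IAA, against 17.1 and 18.1 in parental DT40. It differed between the lines by 1.70 with IAA (1.16 to 2.24) and 1.34 without (0.72 to 1.96). BU225487 had 92.5 and 81.9 units in the OsTIR1 line with and without IAA, against 34.6 and 40.4 in parental DT40. It differed by 1.42 with IAA (0.95 to 1.89) and 1.06 without (0.56 to 1.57). In both, the intervals of the 2 comparisons overlap widely.

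Whether IAA moved these transcripts is not the contrast that chose them, but it uses the same arrays and is tied to the rule. A probe that IAA moved in a single line could miss 2-fold in a comparison and so drop out. The shares over all probes given here carry no such selection, so they are an unlike background. None of the 54 was 1.5-fold apart with IAA in the OsTIR1 line, where 0.746% of the 19436 probes were. None was in parental DT40 either, where 1.85% were. The IAA difference had a median of 0.04 in the OsTIR1 line (range -0.26 to 0.34) and of 0.01 in parental DT40 (range -0.36 to 0.29). Its median size was 0.07 and 0.08 among the 54 in the OsTIR1 line and parental DT40, and 0.08 in both over all probes. With only 54 transcripts and shares this low, a count of 0 lies near the background.

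In the OsTIR1 line, 35 of the 54 (64.8%) were higher with IAA and 19 lower, where 49.9% of all probes above background on every array were higher. In parental DT40, 29 (53.7%) were higher and 25 lower, where 47.8% of all probes were higher. Scaling to the array median instead, which moves all probes by 0.10 and 0.17 in these comparisons, gave 48 of 54 higher in the OsTIR1 line and 51 of 54 in parental DT40. Those shifts exceed the median size of an IAA difference over all probes, 0.08 in both lines, so the counts with median scaling largely follow the scaling. Quantile normalization gave 36 and 30, and cyclic loess 37 and 30, in the OsTIR1 line and parental DT40. The share of all probes higher with IAA was not taken under these other scalings, so their counts have no background beside them. No interval of an IAA difference left out 0, but half-widths ran from 0.40 to 0.43 in the OsTIR1 line and from 0.40 to 0.87 in parental DT40. Those widths rest on the software's error of a spot and not on repeated arrays of a group. The smallest difference that could be seen is therefore not known. In 22 transcripts the IAA difference was above 0 in both lines, in 12 below 0 in both and in 20 of opposite sign. These sign counts were not taken over all probes, so they too have no background beside them.

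The transcript furthest apart with IAA in the OsTIR1 line was CR387091, given above, at 0.34 (-0.07 to 0.75), beside -0.01 (-0.73 to 0.70) in parental DT40. In parental DT40 it was BX932170, a dim one, with 11.9 units with IAA and 16.0 without, a difference of -0.36 (-1.23 to 0.52). In the OsTIR1 line BX932170 had 32.2 units with IAA and 39.3 without, a difference of -0.26 (-0.69 to 0.17). The parental signals of BX932170 are close to the lowest ones counted as well above background, 10.4 units with IAA and 14.3 without. Those of CR387091, 17.1 units with IAA and 18.1 without, also lie near these limits, the nearer at 1.26 times its limit. AJ720776 and CR352446 show the other end, with IAA differences that round to 0.01 or less in both lines. CR352446 had 306 and 310.2 units in the OsTIR1 line with and without IAA, against 110.4 and 116 in parental DT40.

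**Figure D3:**
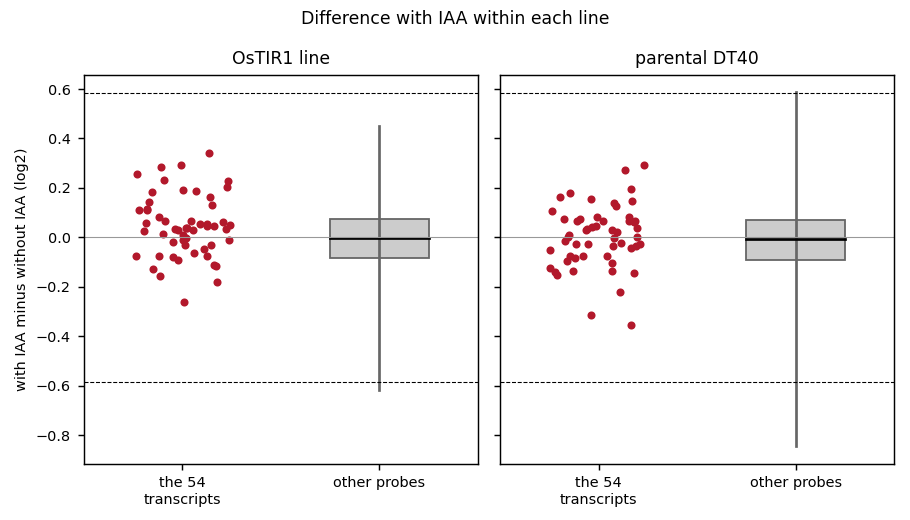
Difference with IAA minus without IAA on the log2 scale (y axis) in the OsTIR1 line (left) and in parental DT40 (right). Points are the 54 transcripts, boxes hold the middle 50% of the other probes above background on all 4 arrays with their median, and vertical lines hold their middle 99%. The points run from -0.26 to 0.34 on the left and from -0.36 to 0.29 on the right, all inside the dashed 1.5-fold lines.

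An additive limma fit with terms for line and IAA took the lines as repeats of the treatment, over the 23100 probes that 2 or more arrays detected. It called 0 of the 54 for IAA at a Benjamini-Hochberg adjusted p under 0.05, as it called 0% of all probes. The smallest adjusted p among the 54 in this limma fit was 0.955, and 1 of them (1.85%) had an unadjusted p under 0.05, BX932170 with an IAA effect of -0.31, where 4.87% of all probes did. Over all the limma fits run, the smallest adjusted p among the 54 ran from 0.792 to 0.955. With a trend and robust prior, limma called 0 of the 54 and 8 of all 23100 probes, so this count of 0 lies near the share over all probes. In that fit 5 of the 54 (9.26%) had an unadjusted p under 0.05, where 5.06% of all probes did. Unadjusted p was under 0.05 for 4 of the 54 (7.41%) in the limma fit of probes above background on all 4 arrays and for 4 with normexp, where 5.65% and 4.68% of all probes passed. Each of these fits, with or without a trend, has 1 residual degree of freedom. The fit without a trend called none of 50 simulated probes changed by 3 on the log2 scale, so its count of 0 carries little weight. With the trend and robust prior, limma called 46 of 50 simulated probes changed by 1, and also 22 of 22900 unchanged ones. Simulated probes of like signal shared the same spread, which favours a trend and which measured probes need not do. These simulated calls therefore do not give the power of the fit on the measured arrays. The changed probes were changed alike in both lines. Whether this fit would call probes changed in the OsTIR1 line alone was not tested.

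Background signal was lower on the OsTIR1 arrays. Negative control spots had a median raw signal of 23.0 and 25.5 units in the OsTIR1 line with and without IAA, against 30.5 and 39.0 in parental DT40. All 54 were at least 1.5 times that raw signal on 3 arrays, and 52 were on the array of parental DT40 without IAA. On the raw signal with no background taken off, 30 of the 54 were at least 2-fold higher in the OsTIR1 line in both comparisons and 47 at least 1.5-fold, the lowest difference being 0.36 with IAA and 0.22 without. On a parental array 7 of the 54 were within 2 times the lowest intensity counted as well above background there, and 22 were at least 10 times that intensity on every array. No spot of the 54 was saturated or marked as an outlier.

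**Figure D4:**
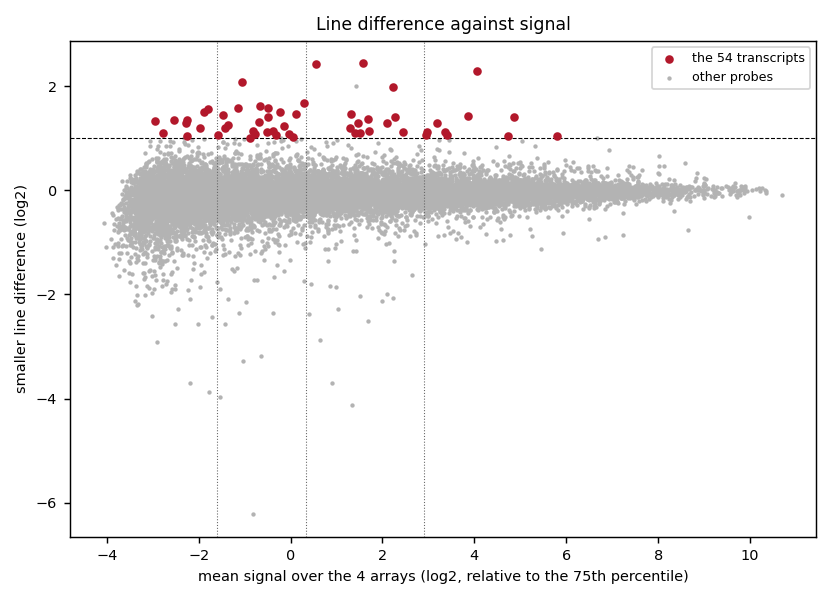
Smaller of the 2 line differences on the log2 scale (y axis) against mean signal over the 4 arrays (x axis), for the 54 transcripts (red) and the other probes above background on all 4 arrays (grey). Dotted lines part the probes into 4 equal bins of signal, which hold 9, 22, 13 and 10 of the 54 from dimmest to brightest, and the dashed line is the 2-fold threshold.

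All 4 bins of signal held some of the 54. In 4 equal bins of mean signal over the 19436 probes, the 54 numbered 9 in the dimmest bin, then 22, 13 and 10 in the brightest. The median smaller difference was 1.34 in the dimmest bin, then 1.24, 1.30 and 1.12. Across the 54, mean signal and smaller line difference had a Spearman's rho of -0.05, given as a description, since the points share the same 4 arrays. On the array surface, divided into 16 equal parts, every part held from 1 to 6 of the 54. On the array of parental DT40 without IAA, 2 parts lit 11.8% and 11.2% of the probes that were dark on the other 3 arrays, against at most 1.89% elsewhere, and they held 5 of the 54 and 12.2% of all probes. The 224 spike-in control spots above background on all arrays were at most 0.45 apart between the lines in any spot, under the 1.00 that the rule asks for. With 0.282% of the 19162 probes past the rule, so few spots say little about that share, and they cover no variation between cultures.

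One probe that the rule leaves out for its RefSeq accession met the same levels. TENM2, a teneurin cell adhesion gene, had 906 and 963 units in the OsTIR1 line with and without IAA, against 203 and 246 in parental DT40, with line differences of 2.16 and 2.01. Of the other probes outside the set, CR390484 came next after the pair at the threshold, with 24482 and 24539 units in the OsTIR1 line with and without IAA, against 12229.6 and 12675 in parental DT40. It was followed by CR386655, with 66.1 and 64.6 units in the OsTIR1 line, against 33.4 and 31.7 in parental DT40. Their line differences with and without IAA were 1.00 and 1.00 for CR390484 and 0.99 and 1.07 for CR386655. The same rule turned round, with at least 2-fold less signal in the OsTIR1 line, took 91 probes.

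No gene of the SCF ligase list (6 genes) or the list of aryl hydrocarbon receptor targets (5 genes) has a named probe here, so the partners of the F-box protein were not analysed. The third list, TENM2, TGFB2 and PDCD2, was made from genes already known to be higher in these arrays and is no independent evidence. TGFB2, a growth factor gene, had line differences of 0.93 with IAA and 0.92 without, and PDCD2 of 0.54 in both, so TENM2 was the one of the 3 past 2-fold. Markers of other blood and connective tissue cells were just as sparse, and TLR4, a macrophage gene and the 1 of them with a named probe, was not well above background on any array.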

How the data were processed

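Cy3-labelled total RNA of 4 samples was measured on Agilent arrays, 1 each, per the labels. The deposited values are spot intensities made with Agilent Feature Extraction 10.5.1.1, which subtracted background and detrended each array, and are not scaled between arrays, per the file headers. The grid's genome build is galGal2, per the file headers. The deposited series-level table holds the same intensities times 1 constant per array, 4.55 and 4.52 for the OsTIR1 line with and without IAA and 4.63 and 4.40 for parental DT40, with medians of 55.9, 60.5, 58.8 and 65.6. Its scale and direction follow from that match, and the reason for the constants is unknown.

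Here the 1417 control spots were left out, log2 of the processed intensity was taken and the array's 75th percentile over 42034 probes was subtracted. limma 3.58.1 in R 4.3.3 fitted the additive model. On simulated data of 23100 probes the IAA fit gave median effects of 0.61, 1.02, 1.98 and 3.00 for changes of 0.58, 1, 2 and 3, and called 0 of 50 probes at each size. With a trend and robust prior it called 31, 46, 50 and 50, and 22 unchanged probes. Simulated probes of like signal shared the same spread, which measured probes need not do.

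The members and the lists were chosen with earlier results of these data known. Transcripts named in full were the 12 with the largest smaller line difference, the 6 with the highest OsTIR1 signal, the 2 on each side of the threshold, the largest outside the set, any 1.5-fold apart with IAA and those alone in their kind of identifier. Others were picked after their values were seen. Normexp correction used the median spot signal and an offset of 50, and was set after the files were seen.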

Additional observations from a re-analysis of the deposited data

Results flagged for a closer look

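Probes dark in parental DT40 fall outside the comparisons of the report, and 6 of them held a signal worth a second look. Of the 41724 probes whose identifiers the rule admits, 2088 were well above background on both OsTIR1 arrays and on neither parental array, beside a lower limit of detection on the OsTIR1 arrays. The lowest intensity counted as well above background was 6.12 and 5.71 units in the OsTIR1 line with and without IAA, against 10.4 and 14.3 in parental DT40. Taking the higher of the dim spot and that limit for parental DT40, 6 of the 2088 were at least 2-fold higher in both comparisons.

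CR522936 had 51.5 and 50.1 units in the OsTIR1 line with and without IAA, against 3 and 4.30 in parental DT40, at least 4.94-fold and at least 3.61-fold higher. BU239359 had 50.8 and 49.5 units in the OsTIR1 line, against 10.3 and 5.85 in parental DT40, at least 4.88-fold and at least 3.56-fold higher. The other 4 were BX935601, CR523403, TC225332 and BU425506, with 29.0 to 36.1 units in the OsTIR1 line and lower bounds on the fold between 2.09 and 3.47. In the other direction, 37 probes were well above background on both parental arrays and neither OsTIR1 array, and all 37 passed 2-fold in both comparisons by the same bound. That bound is easier to pass in this direction. The lowest parental signals counted, 10.4 and 14.3 units with and without IAA, already lie above the OsTIR1 limits of 6.12 and 5.71. The counts of 6 and 37 therefore cannot be set against each other. All these bounds rest on 1 array per group and were not tested.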

How the results depend on the processing

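The number of transcripts that the rule takes stayed within 1.5 times 54 with median scaling (69), quantile normalization (55) and cyclic loess (50). The deposited series-level table gave 55, with all 54 among them. It holds the same intensities times 1 constant per array, which the scaling removes, so that count was all but fixed in advance. Leaving out the 2 bright parts of the surface gave 49, since 5 of the 54 lie there, and is no check of the rest. The number was 26 with normexp correction and 31 with no background taken off. Normexp adds an offset of 50 and the other setting leaves the background in, and an amount added to dim spots shrinks their ratio. How much of the fall in number this makes up was not tested. Moving the threshold gave 213 at 1.5-fold and 4 at 4-fold, no filter on detection gave 214, and the brighter probes alone gave 23. Of the 54, all 54 were kept by median scaling and quantile normalization, 50 by cyclic loess, 30 with no background taken off and 26 by normexp. Median scaling raised every line difference by 0.04 with IAA and 0.11 without, so it could drop none of the 54. No line difference of the 22 transcripts named by rule changed sign, though the rule had chosen each at 2-fold or more. With normexp 17 of 44 of these differences left their interval and with no background taken off 10 of 44, and with the other scalings none did. For median scaling that was fixed in advance, as its shifts of 0.04 and 0.11 lie under the smallest half-width of 0.40. The counts of 0 for IAA at 1.5-fold stayed 0 with median scaling, quantile normalization, cyclic loess and normexp. With median scaling they could not change, as its shifts of 0.10 in the OsTIR1 line and 0.17 in parental DT40 were too small. A 2-fold threshold could give only 0. The count of limma calls among the 54 was 0 under all alternatives run for it. Over all 23100 probes limma called 8 with a trend and robust prior and 7 with normexp. The planned normexp on the mean spot signal was not run, as the files used here give the median signal. The normexp, raw signal and surface settings were chosen after seeing the data. The samples carry no replicate numbers that pair them, and the additive limma fit compares IAA within each line, with line as a term. Signal over background limits the dim transcripts, and the number of arrays limits all.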

Other observations

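Probes at least 2-fold higher in the OsTIR1 line in 1 comparison but not the other were counted apart from the 54, and most leaned the same way in both. With IAA alone there were 32, and their difference without IAA had a median of 0.75, from -0.29 upward. It was above 0 in 28 of them and at least 1.5-fold in 21. Without IAA, 51.3% of all probes above background on every array were above 0, and 5.55% were at least 1.5-fold apart in either direction. Without IAA alone there were 46, and their difference with IAA had a median of 0.67, from -0.59 upward. It was above 0 in 39 of them and at least 1.5-fold in 25. With IAA, 53.1% of all probes above background on every array were above 0, and 4.76% were at least 1.5-fold apart in either direction. Of the 32, 19 lay in the dimmest of 4 equal bins of signal, as did 28 of the 46, against 9 of the 54 transcripts past the threshold in both. No test was run on these counts.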
